A study of Mus musculus with 4 samples.

Results

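Mural cells wrap the endothelial tube of blood vessels. They comprise the pericytes of capillaries and the smooth muscle cells of larger vessels, and 10 genes that mark them were examined here in the early postnatal mouse mammary gland. The genes were listed as known mural cell markers by a rule that uses no measured value, though with earlier results of these data known. Of the 10, 7 had at least 1 probe set listed with a single gene, among 17097 such genes on the array, and these 7 genes held 14 of 28898 single-gene probe sets. They were the pericyte genes Rgs5, Kcnj8 and Pdgfrb and the contractile genes Acta2, Myh11, Cnn1 and Mylk. Expression of Abcc9, Tagln and Cspg4 was not analysed here.

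RNA came from the whole inguinal gland of mice at postnatal day 10, 2 wild-type samples, Mt1-mmp(+/+), and 2 global knockout samples, Mt1-mmp(-/-), with 1 Affymetrix array each. All were littermates on an outbred Swiss Black background, and the labels call the samples of a genotype biological replicates without saying how many animals each holds. The missing gene, listed as Mmp14, encodes a collagen-degrading protease of the cell membrane, and the comparison asks which transcripts differ when it is absent from every cell. Values are log2 expression values summarised by the authors with RMA, where a difference of 1 is a 2-fold change. RMA compresses differences close to the array's background.

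Pericytes are drawn to growing vessels by platelet-derived growth factor B, which endothelial cells secrete and the receptor encoded by Pdgfrb binds. Rgs5 encodes a protein that shortens G protein signals and is a widely used pericyte marker. Kcnj8 encodes the pore of a potassium channel that opens when ATP is low, and Abcc9, its neighbour in the genome, encodes the channel's regulatory subunit. The contractile genes encode smooth muscle actin (Acta2), the smooth muscle myosin heavy chain (Myh11), the actin-binding calponin (Cnn1) and the kinase that switches myosin on (Mylk). In the mammary gland the contractile genes are also made by myoepithelial cells, which surround ducts and expel milk, so they do not mark vessels alone.

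Transcription of contractile genes is driven by serum response factor at CArG boxes. The sequences just before a RefSeq start (GRCm38.p6) are shown for the 2 members that were lower in the knockout, Rgs5 and Kcnj8, and for Acta2, a contractile gene whose groups overlapped. Each runs 5′ to 3′ over 250 bases. Capitals mark the letters of a CArG box with 1 letter of its A and T core replaced by G or C.
Rgs5, chr1:169655251-169655500, plus strand: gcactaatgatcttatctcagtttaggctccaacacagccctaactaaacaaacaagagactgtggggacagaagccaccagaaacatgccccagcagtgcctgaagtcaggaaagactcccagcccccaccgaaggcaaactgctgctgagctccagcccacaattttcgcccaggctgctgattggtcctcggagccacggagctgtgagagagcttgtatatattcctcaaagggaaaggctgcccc
Kcnj8, chr6:142571615-142571864, minus strand: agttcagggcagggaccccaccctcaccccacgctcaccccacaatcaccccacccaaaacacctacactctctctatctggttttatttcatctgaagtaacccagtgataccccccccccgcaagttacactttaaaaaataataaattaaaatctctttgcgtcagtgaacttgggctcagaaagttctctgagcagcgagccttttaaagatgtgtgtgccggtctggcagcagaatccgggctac
Acta2, chr19:34255374-34255623, minus strand: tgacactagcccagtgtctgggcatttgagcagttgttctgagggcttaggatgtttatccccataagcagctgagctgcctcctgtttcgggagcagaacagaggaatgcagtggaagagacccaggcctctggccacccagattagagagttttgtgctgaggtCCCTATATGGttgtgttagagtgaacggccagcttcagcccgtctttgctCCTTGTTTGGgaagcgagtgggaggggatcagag
The search covered the windows of 7 of the 10 listed genes, which were not the same as the 7 with expression values. They were Rgs5, Kcnj8, Acta2, Cnn1 and Mylk, with Abcc9 and Cspg4 in addition and without Myh11 and Pdgfrb. No window of these held a full CArG box, which 1.47% of 32851 RefSeq windows of this length held. A box with 1 replaced core letter, a looser form chosen after the strict search, which 7.24% of windows held, was found in 1 member, Acta2, which had it at 84 to 75 and at 34 to 25 bases before the start. The start that RefSeq gives here for Acta2 lies inside the full annotated span of the gene, and which start the gland uses is not known from these data. The box reads the same way on both strands. A match is a string of letters and no evidence of binding, and a missing match says only that the letters are not in this window.

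Mmp14 itself was at 8.92 and 8.73 on the wild-type arrays against 5.83 and 5.68 on the knockout arrays. Over all 11078 genes whose mean reached the array median of 4.94, limma with Benjamini-Hochberg adjustment called 0 genes (0%) at an adjusted p under 0.05, while an unadjusted p under 0.05 was reached by 1074 genes with higher values (9.69%) and 1337 with lower values (12.1%). The 2 knockout arrays lay further apart than the wild-type arrays, with median gaps of 0.21 and 0.08. Relative to the wild-type mean, the median skeletal muscle marker was at -0.71 in the first knockout array and at 5.61 in the second. In wild-type replicates 1 and 2 it was at -0.63 and 0.63, so the first knockout array was close to wild-type replicate 1. The median epidermis and hair follicle marker was at 3.15 in the first knockout array and -1.29 in the second, against -0.78 and 0.78 in wild-type replicates 1 and 2. The wild-type arrays thus also differed from each other in both lists. The fat cell gene Adipoq was between 13.04 and 13.26 on the 4 arrays. Another fat cell gene, Lep, gave 10.72 and 10.72 on the wild-type arrays against 6.95 and 4.48 on the knockout arrays. Of 5 tested white adipocyte markers the mean was lower for 3 and higher for 2. The basal keratin gene Krt5, which the epidermis also makes, was between 6.64 and 8.85. The 3′ minus 5′ signal of the actin control probe sets, a measure of RNA integrity, was 0.46 and 0.51 for wild type and 0.61 and 0.56 for the knockout, that of Gapdh 0.19 and 0.18 for wild type and 0.10 and 0.12 for the knockout, and their part in the results was not tested. In whole tissue, fewer cells of a type and less RNA per cell cannot be told apart.

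Rgs5 and Kcnj8 were lower in both knockout arrays, while Pdgfrb and all 4 contractile genes overlapped between genotypes. No member passed the test over all genes. All 7 genes exceeded the filter of 4.94 on every array in their brightest probe set, so none entered the test through 1 genotype only. Across all genes tested, 32.5% were lower without overlap and 26.3% higher, so a lower value in both knockout arrays was common. Of the 3 pericyte genes 2 were lower without overlap and 0 higher, and of the 4 contractile genes 0 were lower or higher.

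Rgs5 gave 11.90 and 11.87 on the wild-type arrays against 11.54 and 11.34 on the knockout arrays in its brightest probe set. Both knockout values lay below both wild-type values, which differed from each other by only 0.03. The difference was -0.45 ± 0.10 (SE, n = 2 per group), or 1.36-fold, with an adjusted p of 0.167 in limma. Among all genes tested, 10.6% had a smaller p than Rgs5.

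Rgs5 was read by 3 further probe sets, all dimmer, and in each both knockout arrays again lay below both wild-type arrays. The second set gave 10.54 and 10.51 on the wild-type arrays against 10.16 and 9.66 on the knockout arrays, a difference of -0.62 ± 0.25. The third gave 9.36 and 9.18 against 8.79 and 7.67 (-1.05 ± 0.57), and the dimmest 7.76 and 7.74 against 7.29 and 6.28 (-0.97 ± 0.51). The 4 sets gave similar values for knockout replicate 1, from -0.35 to -0.49 relative to the wild-type mean, but knockout replicate 2 ranged from -0.54 to -1.60. The size of the difference thus depended on the probe set, from 1.36-fold to 2.06-fold, and in knockout replicate 2 more than in knockout replicate 1. These sets read the same RNA and are not replicates of the condition. The IDs of the 2 dimmest carry suffixes that Affymetrix gives to sets able to match several transcripts. Tested singly among 16329 probe sets, of which 32.8% were lower without overlap, the 4 sets had adjusted p-values of 0.170, 0.210, 0.255 and 0.247 in limma.

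Kcnj8, the pore subunit gene, gave 9.27 and 9.08 on the wild-type arrays against 8.57 and 8.72 on the knockout arrays. Here knockout replicate 1 was the lower array, and both knockout values again lay below both wild-type values. The difference was -0.53 ± 0.12 (SE, n = 2 per group), or 1.45-fold, with an adjusted p of 0.153 in limma, and 8.63% of all genes had a smaller p. The related channel genes Kcnj11 (0.01 ± 0.05), which encodes the pore of the channel of the pancreatic beta cell, and Abcc8 (-0.18 ± 0.06), its regulatory subunit, also did not pass. Abcc8 was near the filter, at 4.93 to 5.19, where differences are compressed.

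Pdgfrb, the receptor gene, gave 7.83 and 7.74 on the wild-type arrays against 7.65 and 8.09 on the knockout arrays. The knockout values lay on either side of the wild-type pair, so this pericyte gene did not follow Rgs5 and Kcnj8 in knockout replicate 2. Its difference was 0.08 ± 0.22 (SE, n = 2 per group), with a limma 95% interval from -0.42 to 0.59 and an adjusted p of 0.804. The lower end of that interval is close to the difference of Rgs5, so a smaller fall cannot be told from none here.

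**Figure D1:**
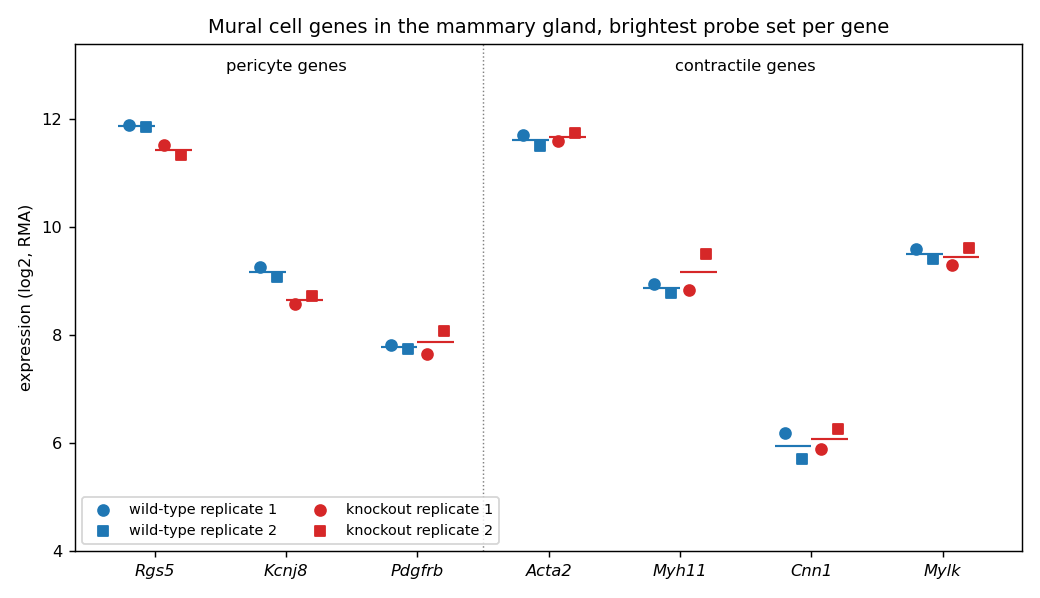
Expression (log2, RMA) of the 7 mural cell genes in each of the 4 arrays, brightest probe set per gene, with blue for wild type, red for knockout, circles for replicate 1, squares for replicate 2 and short lines for group means. Both red points lie below both blue points for Rgs5 and Kcnj8, and overlap them for the other 5 genes. Heights of different genes are not comparable, since each probe set binds with its own strength.

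Acta2, the most used marker of smooth muscle and myoepithelium, gave 11.72 and 11.52 on the wild-type arrays against 11.60 and 11.74 on the knockout arrays. Knockout replicate 1 lay between the wild-type values and knockout replicate 2 just above both. The difference was 0.06 ± 0.12 (SE, n = 2 per group), with a limma 95% interval from -0.29 to 0.40 and an adjusted p of 0.814. The ID of the Acta2 set tested here also carries a suffix that Affymetrix gives to sets able to match several transcripts.

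Myh11, the most restricted marker of differentiated smooth muscle, gave 8.96 and 8.79 on the wild-type arrays against 8.84 and 9.51 on the knockout arrays. Only knockout replicate 2 stood above the wild-type pair, by 0.64 over its mean, while knockout replicate 1 lay between the wild-type values. The difference was 0.30 ± 0.34, with a limma 95% interval from -0.42 to 1.03 and an adjusted p of 0.528. Without knockout replicate 1 the difference was 0.64, in a fit whose spread comes from the wild-type arrays alone. The direction of Myh11 reversed without knockout replicate 2 (-0.03).

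Cnn1, which encodes calponin, gave 6.18 and 5.71 on the wild-type arrays against 5.89 and 6.27 on the knockout arrays. The dimmest of the members, it varied as much between the wild-type arrays (a gap of 0.47) as between the knockout arrays (0.38), and the genotypes overlapped. Its difference was 0.14 ± 0.30, with a limma 95% interval from -0.51 to 0.78 and an adjusted p of 0.753.

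Mylk, the myosin light chain kinase gene, gave 9.60 and 9.41 on the wild-type arrays against 9.30 and 9.61 on the knockout arrays. Knockout replicate 1 was the lowest of the 4 arrays and knockout replicate 2 the highest. The difference was -0.05 ± 0.18, with a limma 95% interval from -0.49 to 0.39 and an adjusted p of 0.873. A second Mylk probe set gave 9.47 and 9.27 against 9.15 and 9.31 (-0.14 ± 0.12), which also overlapped.

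The remaining probe sets of Acta2, Myh11 and Mylk, 3 in all, had means of 4.32, 4.45 and 4.85, below the filter, and were not tested. Of the 11 that passed it 5 were lower without overlap, where 32.8% of all sets were, and 6 overlapped. The 5 were the 4 sets of Rgs5, which read 1 gene, and that of Kcnj8.

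**Figure D2:**
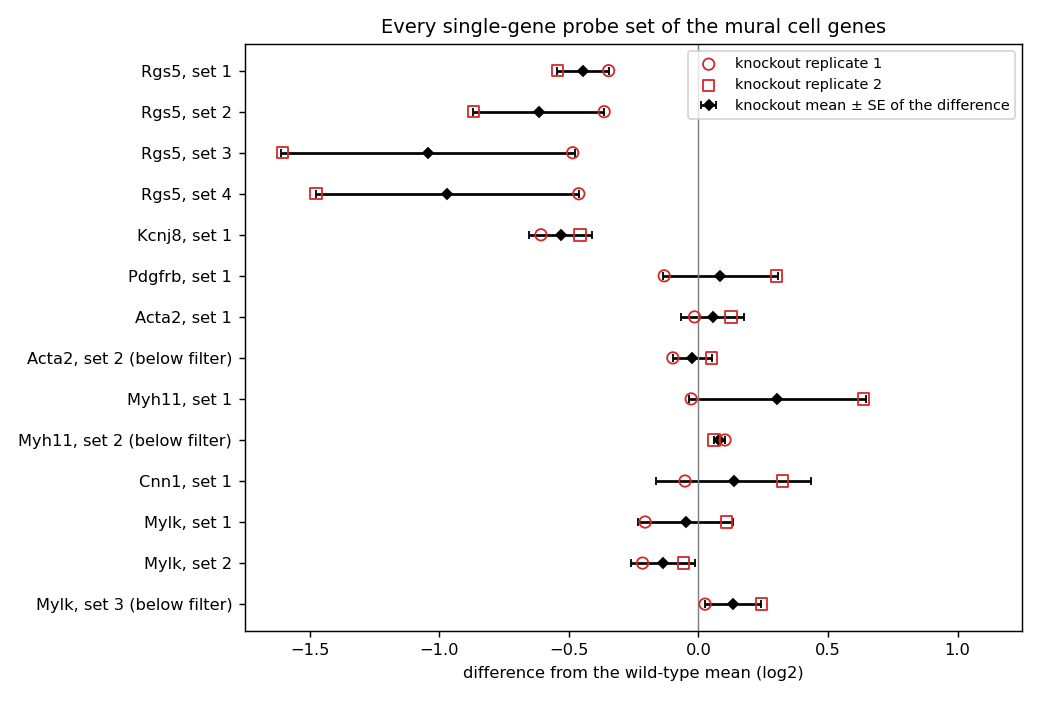
Difference from the wild-type mean (log2) for all 14 probe sets of the 7 genes, numbered by brightness within a gene. Diamonds show the knockout mean with the SE of the difference, and open red symbols the 2 knockout arrays. The 4 Rgs5 sets and the Kcnj8 set lie left of 0 in both arrays, with Rgs5 sets 3 and 4 near -0.5 in knockout replicate 1 and near -1.5 in knockout replicate 2.

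The pericyte genes as a group stood lower than the contractile genes in both knockout arrays. Their median difference was -0.45 (2 lower and 1 higher in the mean), against 0.10 for the contractile genes (1 lower and 3 higher) and -0.02 for all genes tested, of which 53.5% were lower in the mean. The contractile median was 0.26 without wild-type replicate 1 and turned to -0.071 without wild-type replicate 2 and to -0.040 without knockout replicate 2. In single arrays the median over the pericyte genes, relative to the wild-type mean, was 0.04 and -0.04 on the wild-type arrays against -0.35 and -0.46 on the knockout arrays. For the contractile genes it was 0.10 and -0.10 on the wild-type arrays against -0.04 and 0.22 on the knockout arrays. The gap between the groups within an array was therefore -0.05 and 0.05 on the wild-type arrays against -0.31 and -0.68 on the knockout arrays. This gap compares genes within the same array, so a shift of a whole array leaves it unchanged. In knockout replicate 2, where it was larger, the contractile median was at 0.22 and the median skeletal muscle marker at 5.61, and the part of skeletal muscle was not tested. It rested on 3 and 4 genes, and Pdgfrb did not share it in knockout replicate 2. With 2 arrays against 2 no exact permutation p can fall below 0.333, and no test was made of it.

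A wider list of 28 mural and pericyte genes, the members left out, had 22 tested genes. The median was -0.32, and the mean was lower for 19 and higher for 3. Without overlap 14 were lower (63.6%), where 32.5% of all genes were, and 2 were higher. Each knockout array showed this, with 17 of 22 (77.3%) below both wild-type arrays in knockout replicate 1, where 43.7% of all genes were, and 17 of 22 in knockout replicate 2, where 50.8% were. Of 14 blood endothelium markers, 13 (92.9%) lay below both wild-type arrays in knockout replicate 1 and 7 (50%) in knockout replicate 2. Without overlap 7 of these 14 (50%) were lower, as were 5 of 10 fibroblast markers (50%). Lower values were thus not particular to the mural list. Of the 22 tested genes of the mural list none passed over all genes in limma. At an unadjusted limma p under 0.05, 11 were lower and 1 higher, where 12.1% and 9.69% of all genes were.

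The 4 of this list with the smallest p were all lower. Ndufa4l2, which encodes a mitochondrial protein abundant in pericytes, gave 6.88 and 6.67 on the wild-type arrays against 5.74 and 5.90 on the knockout arrays (-0.96 ± 0.13, SE, n = 2 per group, limma adjusted p = 0.105). Heyl, a target gene of Notch signals in mural cells, gave 6.96 and 6.89 against 5.91 and 6.16 (-0.89 ± 0.13, adjusted p = 0.107 in limma). Vtn, the vitronectin gene, gave 6.96 and 7.05 against 6.42 and 6.48 (-0.56 ± 0.05), and Steap4, a metal reductase gene also made by fat cells, 10.74 and 10.70 against 10.11 and 9.73 (-0.80 ± 0.19). In all 4 the genotypes were further apart than the arrays within either genotype.

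Further genes of the list were singled out after their values were seen. Gucy1a1 (-0.43 ± 0.10) and Gucy1b1 (-0.67 ± 0.31), the subunits of the nitric oxide receptor that relaxes smooth muscle, were lower in both knockout arrays. Notch3, the main Notch receptor of mural cells, gave 9.87 and 9.66 against 9.52 and 9.67 and overlapped (-0.17 ± 0.13), as did the pericyte genes Higd1b (-0.15 ± 0.20) and Cox4i2 (-0.09 ± 0.06). The transcription factor gene Ebf1, also active in fat and B cells, was higher in both knockout arrays (0.37 ± 0.10), as was the peptidase gene Anpep (0.42 ± 0.30), whose wild-type mean of 4.83 is under the filter, so that its higher knockout values brought it into the test. None of these passed.

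Of the ligand genes of this growth factor family, Pdgfb, the endothelial ligand that recruits pericytes, gave 8.16 and 7.90 on the wild-type arrays against 6.83 and 7.43 on the knockout arrays (-0.90 ± 0.33, SE, n = 2 per group, limma adjusted p = 0.180). Pdgfd, which encodes another ligand of the receptor of Pdgfrb, gave 7.67 and 7.63 against 6.73 and 6.44 (-1.07 ± 0.14, limma adjusted p = 0.105). Pdgfc, a ligand mainly of the alpha receptor, gave 8.22 and 8.22 against 7.65 and 7.57 (-0.60 ± 0.04, limma adjusted p = 0.115). None of these ligand genes passed. All 3 lay below both wild-type arrays in both knockout arrays, where 32.5% of all genes did, and Pdgfrb overlapped. The alpha receptor gene Pdgfra had low values of 4.94 and 4.77 against 4.98 and 5.49 (0.38 ± 0.27), and its wild-type mean of 4.86 is under the filter of 4.94, which it passed through the knockout arrays. Of the 5 tested genes of this list 4 were lower in the mean and 0 passed over all genes.

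**Figure D3:**
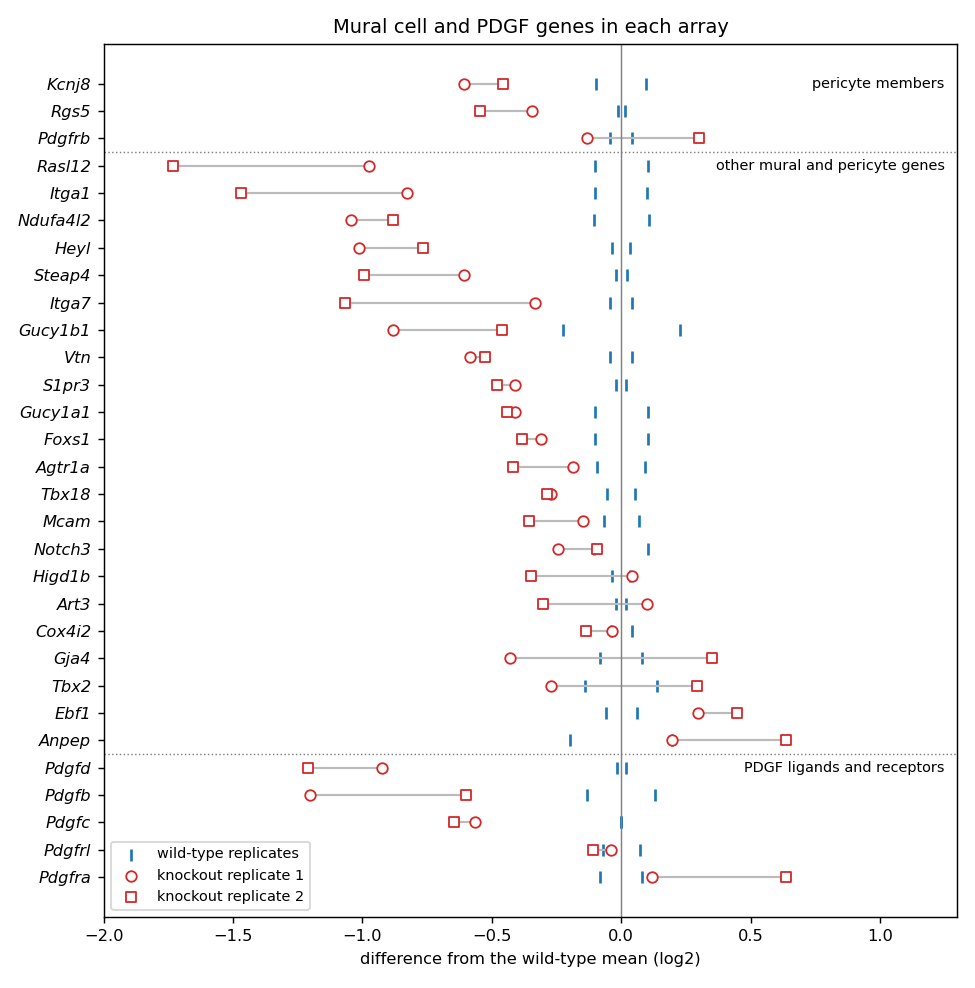
Difference from the wild-type mean (log2) of 30 tested genes, in 3 blocks of pericyte genes, other mural genes and PDGF genes, ordered within each block by the mean difference. Open red symbols are the 2 knockout arrays joined by a grey line, and blue ticks the 2 wild-type arrays. Of the 22 other mural genes 14 have both red symbols to the left of both ticks, with Rasl12 and Itga1 furthest left, while Ebf1 and Anpep lie to the right.

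Of the relatives of Rgs5 in the same family of G protein regulators, 4 were tested. Without overlap 0 were lower and 2 higher, where 32.5% and 26.3% of all genes were. Rgs3 gave 8.29 and 8.51 on the wild-type arrays against 9.59 and 9.38 on the knockout arrays (1.09 ± 0.15, SE, n = 2 per group, limma adjusted p = 0.105). Rgs2 gave 7.70 and 8.12 against 9.83 and 8.54 (1.28 ± 0.68). Rgs4, also used as a pericyte marker, gave 7.70 and 7.54 against 7.23 and 7.56 and overlapped (-0.23 ± 0.19). Of 4 tested relatives, 3 were higher in the mean and 0 passed over all genes.

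Other smooth muscle genes were split between arrays. Among 24 tested genes the median was -0.06, with 13 means lower and 11 higher, and 11 were lower (45.8%) and 4 higher without overlap, where 32.5% and 26.3% of all genes were. Their median was -0.18 on the first knockout array and 0.06 on the second. Of the 24 genes 18 lay below both wild-type arrays in knockout replicate 1 and 11 in knockout replicate 2, where 43.7% and 50.8% of all genes did. None passed over all genes in limma.

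Ppp1r14a, which encodes an inhibitor of the phosphatase that switches myosin off, had the smallest p of these, at 7.73 and 7.67 on the wild-type arrays against 6.51 and 6.75 on the knockout arrays (-1.07 ± 0.13, SE, n = 2 per group, limma adjusted p = 0.105). Cnn2 (-0.48 ± 0.08), a calponin of non-muscle cells, Vcl (-0.39 ± 0.08), the vinculin gene of cell adhesions, and Pdlim7 (-0.32 ± 0.04) followed, and all 4 were lower in both knockout arrays. Myl9, the smooth muscle myosin light chain gene, singled out afterwards, stayed near its wild-type level with 10.76 and 10.68 against 10.66 and 10.71. Desmin (Des) gave 6.39 and 6.58 against 6.30 and 8.77, and tropomyosin 1 (Tpm1) 9.26 and 9.33 against 9.13 and 12.13, also singled out afterwards. Both are made by skeletal muscle too, whose markers had a median of 5.61 in the same array, knockout replicate 2. In their brightest sets all 4 contractile members, Acta2, Myh11, Cnn1 and Mylk, were highest in that array as well. For Acta2 (11.74 against 11.72) and Mylk (9.61 against 9.60) wild-type replicate 1 was nearly as high. The second Mylk set was highest in wild-type replicate 1 (9.47 against 9.31 in knockout replicate 2). The part of skeletal muscle in the values of these members was not tested.

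Regulators of the contractile programme had 18 tested genes. Of these the mean was higher for 12 and lower for 6, and the median was 0.04. The 4 with the smallest p were Hdac5, a deacetylase gene (0.62 ± 0.09, SE, n = 2 per group, limma adjusted p = 0.124), Foxo4 (0.55 ± 0.18), Klf4 (0.32 ± 0.08) and Elk4 (0.31 ± 0.10), each higher in both knockout arrays. Foxo4 and Klf4 encode transcription factors known to restrain smooth muscle genes, and Elk4 a partner of serum response factor. The serum response factor gene Srf itself overlapped, with 7.03 and 7.12 against 6.87 and 7.30 (0.01 ± 0.22). Its coactivator gene Myocd had means of 4.48 and 4.67, below the filter, and was not tested. None of the 18 passed over all genes.

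Markers of neighbouring cell types were read in the same arrays. Blood endothelium markers, 14 tested, had a median of -0.37 in the first and -0.01 in the second knockout array, and 11 were lower and 3 higher in the mean. The 4 with the smallest p were Emcn (-0.60 ± 0.08, SE, n = 2 per group), Robo4 (-0.62 ± 0.09), Kdr (-0.36 ± 0.11) and Cdh5 (-0.34 ± 0.17). Relative to the endothelial median of the same array, Rgs5 stood at 0.03 in the first and -0.54 in the second knockout array, and Kcnj8 at -0.23 and -0.45. In knockout replicate 1 Rgs5 was thus as low as the endothelial median, whereas in knockout replicate 2 it was lower than that median. Relative to the wild-type mean, Emcn (-0.58) and Robo4 (-0.55) were as low as the brightest Rgs5 set (-0.54) in knockout replicate 2. The other endothelial markers were not. The dimmer Rgs5 sets were lower still in that array, at -0.87, -1.60 and -1.48, so this comparison depends on the probe set. Pdgfrb stood above the endothelial median in both, at 0.24 and 0.31.

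Myoepithelial and basal epithelial markers had a median of 1.53 in the first and 0.31 in the second knockout array, relative to wild type, and 8 of 9 were higher in the mean. The 4 with the smallest p were Itgb4 (0.66 ± 0.16), Cdh3 (0.27 ± 0.04), Col17a1 (0.76 ± 0.41) and Trp63 (0.98 ± 0.63), of which Cdh3, with a wild-type mean of 4.87, passed the filter only through the knockout arrays. Keratin markers of this list are shared with the epidermis, whose own markers had a median of 3.15 in the same first array. The oxytocin receptor gene Oxtr, made by contractile myoepithelium and singled out afterwards, gave 8.02 and 7.06 against 6.77 and 7.70 and overlapped. It was the only marker of this list with a lower mean. Relative to the wild-type mean, Itgb4 stood at 0.64 and 0.68 and Cdh3 at 0.23 and 0.31 in knockout replicates 1 and 2. The epidermis median was 3.15 and -1.29 there, and the part of skin in this list was not tested. In knockout replicates 1 and 2 fibroblast markers had medians of -0.03 and -0.17, white adipocyte markers of 0.01 and -0.16 and Schwann cell markers of 0.20 and 0.39. The part of these cells in the values of the contractile genes was not tested.

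**Figure D4:**
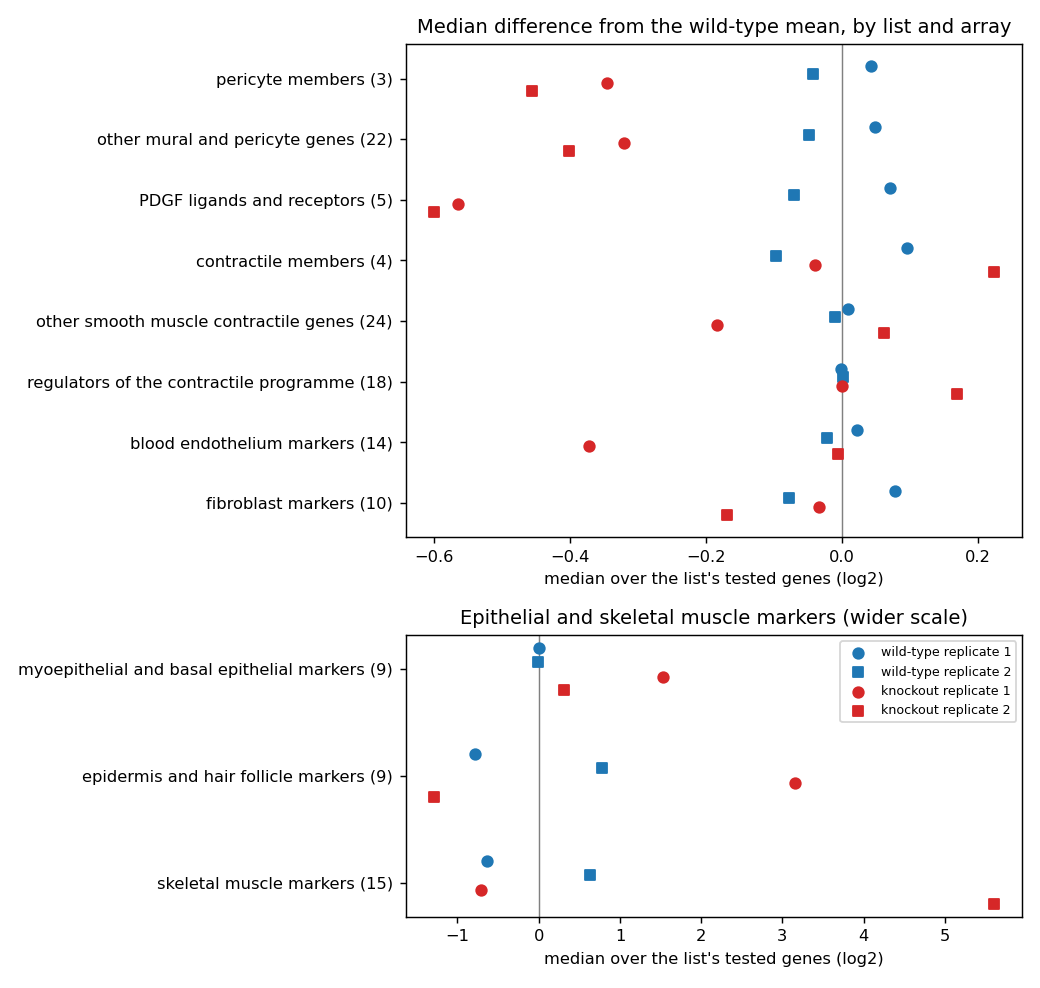
Median difference from the wild-type mean (log2) over the tested genes of each list, whose number stands in brackets, in each of the 4 arrays, with colours and symbols by genotype and replicate. Pericyte genes, other mural genes and PDGF genes lie between -0.32 and -0.60 in both knockout arrays, whereas contractile genes lie at -0.04 and 0.22. The lower panel has a wider scale, on which skeletal muscle markers reach 5.61 in knockout replicate 2 and epidermis markers 3.15 in knockout replicate 1.

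Without knockout replicate 1 the difference of Rgs5 was -0.54, in a fit whose spread comes from the wild-type arrays alone. In the alternatives that kept every array Rgs5 was not called, and its adjusted p in limma ran from 0.132 to 0.289. Kcnj8 was not called in any alternative, with adjusted p-values from 0.0524 to 0.859. Rgs5 and Kcnj8 were lower in each of 13 alternatives, from -0.77 to -0.35 and from -0.63 to -0.44. Most of these could not have turned the sign. Filters, trend, weights and block left both estimates as they were, and dropping an array cannot reverse a gene without overlap. Rescaling the arrays could change it, and gave -0.47 and -0.56 with median centring and -0.35 and -0.46 with cyclic loess.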

How the data were processed

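The deposited table gave log2 expression values for 45141 probe sets on 4 arrays. The submitters' processing notes name RMA and affy as the authors' tools, with no version. That the scale is log2 follows from the range of 3.16 to 13.68, with array medians of 4.92, 4.92, 4.92 and 4.98. The platform annotation listed 28898 probe sets with 1 gene, 551 with several and 15692 with none, and 28689 of the first matched a RefSeq gene table. Only probe sets of 1 gene were used.

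The brightest probe set of each gene was kept, and a gene entered the test if its mean reached 4.94, the overall probe set median. The test of genotype was limma 3.58.1 under R 4.3.3 (lmFit and eBayes, no covariate, Benjamini-Hochberg over 11078 genes, threshold 0.05). The fit was tested on simulated data. SEs are those of the difference between the group means, and intervals are limma's at 95%. With 2 arrays per genotype their number limits the precision, and p-values measure the spread between these samples only.

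The members, 6 lists of related genes and 7 lists of markers were chosen with earlier results of these data known. The text names all members and, per list, up to 4 genes with the smallest p, and says where others were added. Promoter sequences are from RefSeq starts (GRCm38.p6), and windows of 7 of the 10 genes were searched here. The replicate numbers were not treated as pairs, since the labels do not state a pairing. Over the genes the deviations of same-numbered arrays from their group means correlated at -0.09. With 2 arrays per genotype this value cannot show whether the arrays are paired.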

Additional observations from a re-analysis of the deposited data

How the results depend on the processing

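The alternatives were other brightness filters, averaging the probe sets per gene, fits without sets ending in x or s or of single sets, median centring, cyclic loess, an intensity trend, array weights, a replicate block and leaving out each array. With 1 array left out, limma called 0 to 4180 genes and 0 to 2 members, the 2 being Rgs5 and Myh11 without knockout replicate 1, and 1299 genes without knockout replicate 2. Every other setting called 0 genes, the replicate block among them, where Rgs5 had adjusted p = 0.289 and Kcnj8 0.287. The block changed no call. The pericyte median moved from -0.45 to -0.53 with the mean of probe sets, -0.57 with single sets and -0.35 after cyclic loess, and lay between -0.46 and -0.35 with an array left out. The contractile median then lay between -0.071 and 0.26 and the gap between the groups between -0.69 and -0.31. Directions reversed for 5 genes. With an array left out the difference ran from -0.13 (no knockout replicate 2) to 0.30 for Pdgfrb, from -0.044 (no wild-type replicate 2) to 0.16 for Acta2, from -0.028 (no knockout replicate 2) to 0.64 for Myh11, from -0.098 (no wild-type replicate 2) to 0.37 for Cnn1 and from -0.21 to 0.11 (no knockout replicate 1) for Mylk. Acta2 and Cnn1 also reversed when knockout replicate 2 was dropped, Mylk when wild-type replicate 1 was dropped and after cyclic loess (0.028). The count of other mural genes below both wild-type arrays was 14 with both knockout arrays and 17 with either alone, added after the data were seen. Over all genes 43.7% lay below in knockout replicate 1 and 50.8% in knockout replicate 2. A count with 1 knockout array cannot be smaller than that with both, so this is no check of the 14.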
